A study of Mus musculus with 23 samples.

Results

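The genes described here are those of the proteasome subunits, with their activators and assembly chaperones, in mouse pancreatic ductal adenocarcinoma cells. They are the symbols of the count table that begin with Psma, Psmb, Psmc, Psmd, Psme or Psmg followed by a number, without the immunoproteasome subunits Psmb8, Psmb9 and Psmb10 and without pseudogenes, and with a mean of at least 5 counts per library. This rule gave 44 of the 27207 genes counted. The lowest mean among them was 17.8 counts per library, of Psmc3ip, and the only other gene with such a symbol, Psmb11, had 0. All 44 passed the filter on low counts that left 11144 genes for testing. They comprise 7 alpha and 7 beta subunits of the 20S core, 6 ATPases and 11 other subunits of the 19S regulatory particle, 5 activators, 7 assembly chaperones and Psmc3ip, whose symbol fits the rule although its product is a cofactor of recombination and no part of the proteasome. Psme2b is a near-copy of Psme2, so reads may have been divided between the pair and the values of Psme2b are uncertain.

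The proteasome is the protease complex that degrades proteins tagged with ubiquitin. Its core is a barrel of stacked alpha and beta rings, with the proteolytic sites on the subunits encoded by Psmb5, Psmb6 and Psmb7 inside. The regulatory particle binds and unfolds tagged proteins with its ring of ATPases, whereas the PA28 activators, encoded by Psme1, Psme2 and Psme3, and PA200, encoded by Psme4, open the core without ATP. Psme1, Psme2 and the immunoproteasome subunits are known as interferon-induced genes of antigen processing.

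RNA was measured in 23 libraries of 6 groups. KC cells come from tumors of mice carrying Ptf1a Cre/+, and KPC cells from tumors of mice carrying Pdx1 Cre/+. Both Cre drivers act in the pancreas, and each genotype is 1 line, so that genotype and line cannot be told apart. KC cells were grown in 2D culture (n = 6), as organoids in Matrigel for 13 days (n = 3), and as organoids in floating rat tail collagen I for 7 days (n = 3) or 13 days (n = 5), all in batch 1. In batch 2, KC and KPC organoids were grown in collagen for 13 days (n = 3 each). Lysis followed directly in 2D culture, whereas organoids were first freed from the gel with collagenase. A value is the number of captured 3′ ends counted by molecular identifiers, scaled to a common library size (CPM), so that levels of different genes are comparable without division by gene length only as far as their ends were captured equally. In bulk RNA, fewer cells that express a gene and less RNA of it per cell cannot be told apart.

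To show the stretches next to the transcription starts of genes whose levels moved in opposite directions, the 250 bases before the start are printed below for the catalytic subunits Psmb5 and Psmb6, for the regulatory particle subunit Psmd13, and for Psme1 and Psme2. They are from RefSeq on GRCm38.p6, which held a promoter for 37 of the 44 genes, and are written 5′ to 3′ on the strand of the gene. Capitals mark matches to any of 4 motifs searched on both strands, namely the core of the antioxidant response element (TGACNNNGC), the CCAAT box (CCAAT), the GC box (GGGCGG) and the core of the interferon-stimulated response element (GAAA, any 2 bases, GAAA), which may overlap one another.
Psmb5, chr14:54617996-54618245, minus strand: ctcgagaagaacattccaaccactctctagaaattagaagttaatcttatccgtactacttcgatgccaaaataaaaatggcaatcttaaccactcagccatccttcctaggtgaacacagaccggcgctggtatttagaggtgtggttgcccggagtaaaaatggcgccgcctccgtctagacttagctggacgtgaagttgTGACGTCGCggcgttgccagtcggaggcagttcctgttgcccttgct
Psmb6, chr11:70525107-70525356, plus strand: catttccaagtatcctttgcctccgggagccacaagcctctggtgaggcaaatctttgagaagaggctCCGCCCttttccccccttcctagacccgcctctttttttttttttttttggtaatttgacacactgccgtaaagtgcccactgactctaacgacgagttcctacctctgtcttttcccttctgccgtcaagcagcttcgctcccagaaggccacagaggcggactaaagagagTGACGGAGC
Psmd13, chr7:140882144-140882393, plus strand: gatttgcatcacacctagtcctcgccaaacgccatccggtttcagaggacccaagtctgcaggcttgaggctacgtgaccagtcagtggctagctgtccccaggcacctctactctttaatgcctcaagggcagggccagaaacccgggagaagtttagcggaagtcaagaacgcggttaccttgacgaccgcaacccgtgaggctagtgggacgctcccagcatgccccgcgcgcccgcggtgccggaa
Psme1, chr14:55578244-55578493, plus strand: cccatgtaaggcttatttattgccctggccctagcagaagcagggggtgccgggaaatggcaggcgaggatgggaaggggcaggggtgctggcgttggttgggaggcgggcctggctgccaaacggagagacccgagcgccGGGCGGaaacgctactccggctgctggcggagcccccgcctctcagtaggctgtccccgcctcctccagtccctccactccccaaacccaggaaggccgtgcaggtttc
Psme2, chr14:55591102-55591351, minus strand: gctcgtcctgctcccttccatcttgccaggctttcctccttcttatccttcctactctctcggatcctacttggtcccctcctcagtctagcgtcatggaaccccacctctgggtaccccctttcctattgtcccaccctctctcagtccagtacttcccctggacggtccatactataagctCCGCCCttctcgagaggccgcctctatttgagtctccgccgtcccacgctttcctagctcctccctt
The capitals in Psmb5 are an antioxidant response element core that begins 47 bases before the start. Psmb6 has this core 9 bases before the start and a GC box 182 bases before it. RefSeq's starts can differ from the ends of the GENCODE genes given below, so that the stretches of Psmd13 and Psme1 lie within the spans of these genes. Psme1 and Psme2 have a GC box each, at 109 and 67 bases before the start, and the stretch of Psmd13 has no match. Among the 37 promoters, 5 (13.5%) held the antioxidant response element core, those of Psmb5, Psmb6, Psmc6, Psmd9 and Psmd12, against 10.1% of 27018 promoters of all genes. The CCAAT box was found in 13 (35.1%, against 34.5% of all) and the GC box in 21 (56.8%, against 33.0%). The interferon-stimulated element core was found in 3 (8.11%, against 3.05%), those of Psmb3, Psmd4 and Psmd9. The promoters of all genes include those of genes that did not pass the filter on low counts, whereas all members passed it. The sets are thus unlike, and these shares do not show a trait particular to proteasome genes.

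Library totals ran from 1221451 to 2471058 counts. The 2D libraries fell into 2 sets, although all are of batch 1 in the labels. Replicates 1 to 3 had normalization factors of 0.738 to 0.772 and 4.99% to 5.76% mitochondrial counts, and replicates 4 to 6 had factors of 1.04 to 1.06 and 2.51% to 3.01% mitochondrial counts. The typical log2 distance between a library of one set and one of the other was 0.668 to 0.753, against 0.296 to 0.433 within the other 5 groups. Values of 2D are therefore given with and without replicates 1 to 3 where a call rests on them, except those of cell type and cell division markers. Of 9 ductal epithelium markers 8 passed the filter, with summed levels of 7608 to 14785 CPM over all libraries. Fibroblast markers passed for 3 of 7 (Col1a2, Col3a1 and Dcn), with sums of the list from 32.7 CPM in a KPC library to 187 CPM in a 2D library. Leukocyte markers passed for 2 of 6 and acinar markers for 1 of 6. None of the endothelial markers passed. Only 1 of 5 endocrine markers, Ins1, was in the count table, at 0, so the others could not be checked.

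Proteasome genes (the members without Psmc3ip) made up between 0.581% and 1.05% of all counts of a library, a share that does not depend on the normalization. It was highest in KC collagen organoids at day 7, at 1.02% ± 0.027 (SD, n = 3), followed by 2D cells at 0.878% ± 0.044 (n = 6). KPC organoids at 0.752% ± 0.0081 (n = 3), Matrigel organoids at 0.723% ± 0.024 (n = 3) and collagen organoids at day 13 of batch 1 at 0.711% ± 0.027 (n = 5) followed, and the Matrigel and collagen organoids at day 13 did not differ beyond their spread. The KC collagen organoids of batch 2 were lowest, at 0.595% ± 0.014 (n = 3). On the CPM scale, which uses the normalization factors, day 7 and 2D did not keep this order. Their summed levels were 10085 ± 517 CPM (SD, n = 3) and 10089 ± 2245 CPM (n = 6). The sums were 11655 to 12648 CPM in 2D replicates 1 to 3, 7717 to 8403 CPM in replicates 4 to 6 and 9627.5 to 10646 CPM at day 7. By gene, the group mean was highest at day 7 for 25 members and in 2D for 17. With 2D replicates 4 to 6 alone as the 2D group it was highest at day 7 for 37 and in 2D for 4. With replicates 1 to 3 alone these numbers were 22 and 20. With all libraries, only Psme4 was highest in KC collagen organoids of batch 2, and the remaining member, Psmd4, a ubiquitin receptor of the regulatory particle, was highest in KPC organoids. The 244 to 279 CPM of Psmd4 in KPC organoids overlapped the 235 to 269 CPM of day 7. The most abundant members over the groups were Psmb1, a non-catalytic beta subunit, with a mean of 568 CPM, and Psma7, an alpha subunit, with 553 CPM. The least abundant were Psmc3ip with 9.75 CPM and Psme2b with 11.5 CPM. Among the 4 KC groups of batch 1, all 44 members differed in the F-test of edgeR (false discovery rate 0.1, largest adjusted p = 0.0456), where 75.6% of all genes tested did.

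**Figure D1:**
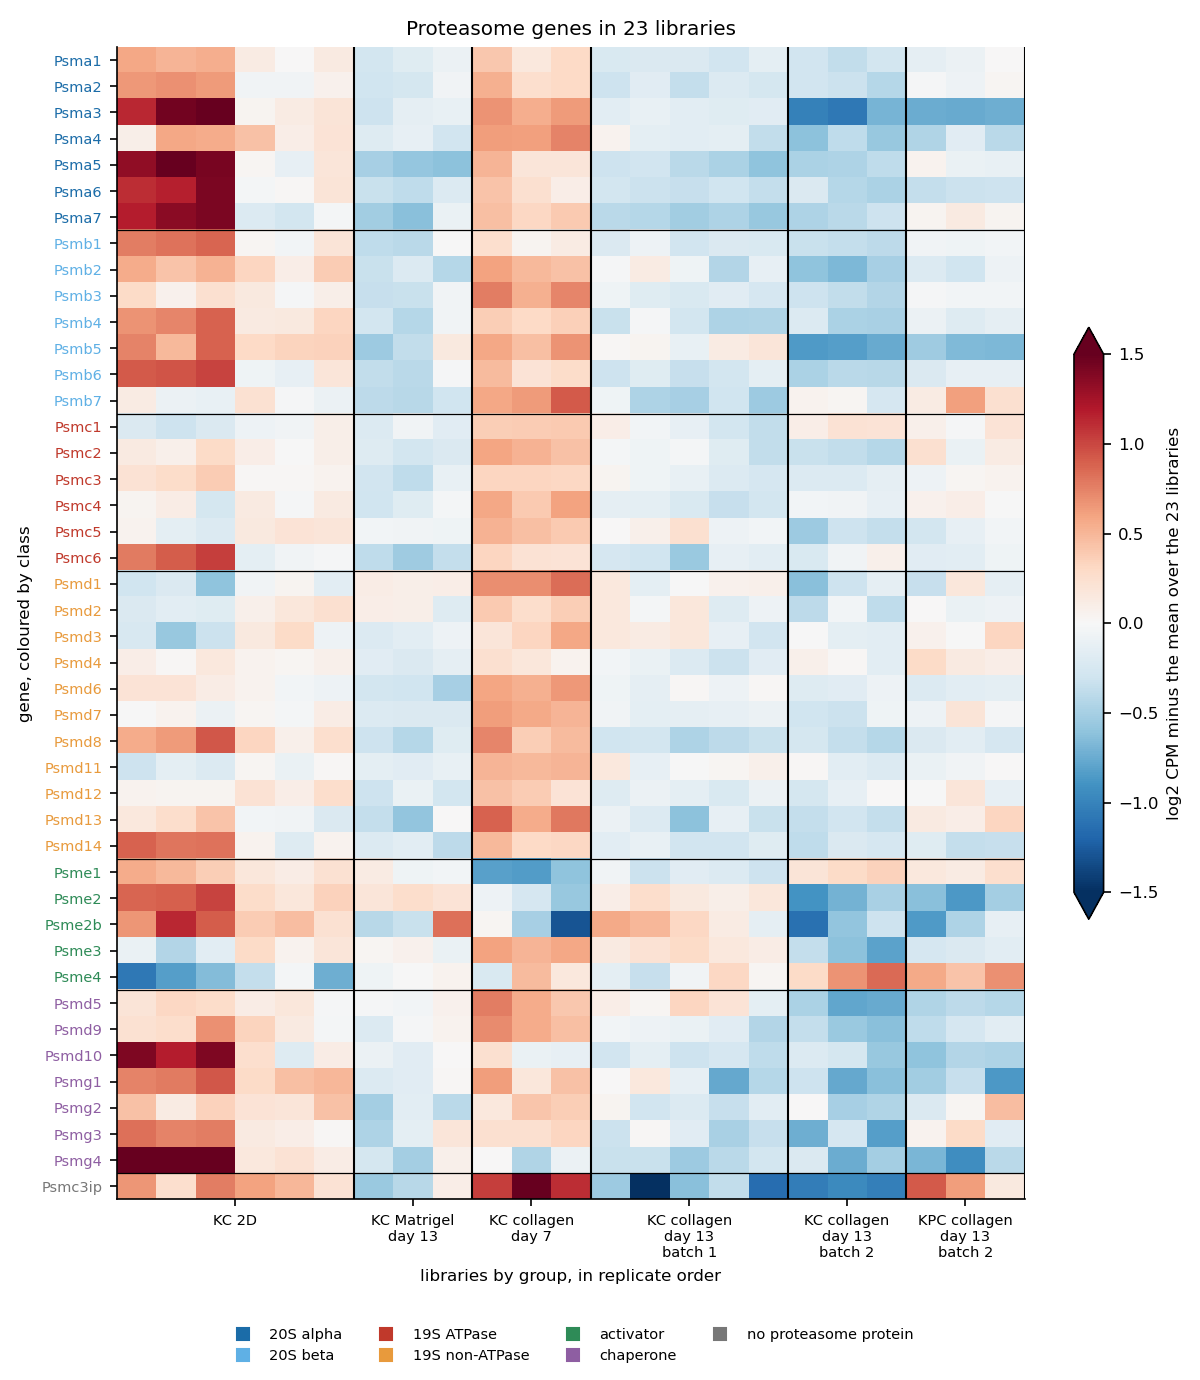
Level of each of the 44 genes (rows, named in the colour of their class) in each of the 23 libraries (columns, by group), as the difference of log2 CPM from the gene's mean over the libraries, with red for higher and blue for lower. The 3 columns of collagen day 7 are red for most core and regulatory particle genes and blue for Psme1, and the first 3 of the 6 columns of 2D are darker than the other 3 for most alpha subunits, Psmd10 and Psmg4.

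Organoids in collagen at day 7, which the study describes as extending branches, were compared with those at day 13, when lumens form, to ask how the genes change as the organoid matures. At day 7 every gene of the core and of the regulatory particle was higher, and the PA28 alpha and beta genes were lower. Of the 44 genes 38 were called higher and 3 lower, against 28.1% higher and 27.1% lower among all genes tested. The median log2 fold change of the members was 0.55, against 0.01 over all genes. All libraries of day 7 were above all libraries of day 13 for 39 members, against 25.4% of all genes, and below them for 2, against 22.9% of all genes.

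The 7 alpha subunits all rose, by 0.51 to 0.86 on the log2 scale with a median of 0.71. The 7 beta subunits rose by 0.34 to 1.08 (median 0.61), the 6 ATPases by 0.41 to 0.75 (median 0.52) and the 11 other subunits of the regulatory particle by 0.32 to 1.01 (median 0.57). The smallest of the core changes was that of Psmb1, the most abundant gene (log2 fold change 0.34 ± 0.17 SE, adjusted p = 0.0929 in the edgeR test).

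Among the catalytic subunits, Psmb7 encodes the trypsin-like site and is the gene at chr2:38588036-38644087. Its levels at day 7 were 206, 214 and 261 CPM, and at day 13 they were 131, 99.7, 97.1, 112 and 94.0 CPM. The groups did not overlap, and the log2 fold change of 1.08 ± 0.13 (SE, edgeR adjusted p = 1.32e-07) was the highest of any proteasome subunit. Psmb5, which encodes the chymotrypsin-like site and lies at chr14:54614119-54618022, had 160, 147 and 171 CPM at day 7 and 109, 110, 99.1, 116 and 121 CPM at day 13. These did not overlap either (log2 fold change 0.52 ± 0.14, edgeR adjusted p = 0.00277). Psmb6, of the caspase-like site (chr11:70525367-70527858), was at 483, 402 and 421 CPM at day 7 and at 282, 307, 274, 288 and 314 CPM at day 13. It rose by a similar amount, again with no overlap (0.57 ± 0.20, edgeR adjusted p = 0.0185).

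Psmd13, a subunit of the lid of the regulatory particle at chr7:140881968-140898643, had 184, 147 and 173 CPM at day 7 and 93.7, 86.3, 65.1, 91.4 and 79.3 CPM at day 13. The lowest library of day 7 was thus above the highest of day 13 (log2 fold change 1.01 ± 0.14, edgeR adjusted p = 1.63e-06). Psmc3ip, the recombination cofactor, had the highest change of all members, from 5.56, 2.40, 5.26, 6.27 and 3.68 CPM at day 13 to 16.7, 23.2 and 17.5 CPM at day 7. This corresponds to a fold of 4.07 (log2 fold change 2.03 ± 0.23, edgeR adjusted p = 9.25e-08).

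The activators moved apart. Psme1, which encodes PA28 alpha and lies at chr14:55578123-55581529, had 64.7, 63.9 and 75.0 CPM at day 7 and 110, 91.6, 102, 99.4 and 92.5 CPM at day 13. The highest library of day 7 was below the lowest of day 13, and Psme1 fell by 0.55 ± 0.11 on the log2 scale (edgeR adjusted p = 0.000328). Psme2, which encodes PA28 beta and lies close to Psme1 at chr14:55587441-55591113, was at 145, 129 and 103 CPM at day 7 and at 164, 184, 170, 163 and 173 CPM at day 13. It fell by 0.44 ± 0.16 (edgeR adjusted p = 0.0293) with no overlap, but without replicate 3 of day 7 the change was -0.31 and did not pass (adjusted p = 0.202), nor did it against the 8 day 13 libraries of both batches (-0.19, 0.497). Psme2b fell by 0.81 ± 0.30 (edgeR adjusted p = 0.0268) from a mean of 14.2 ± 2.72 CPM (SD, n = 5) to 8.20 ± 3.54 CPM (n = 3), and its call was also lost without replicate 3 of day 7 (-0.53, adjusted p = 0.191). Psme3, which encodes the nuclear PA28 gamma, went the other way, with 139, 130 and 136 CPM at day 7 and 98.2 to 111 CPM at day 13, a rise of 0.38 ± 0.12 (edgeR adjusted p = 0.00985). Psme4 was not called (0.20 ± 0.18, edgeR adjusted p = 0.383).

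**Figure D2:**
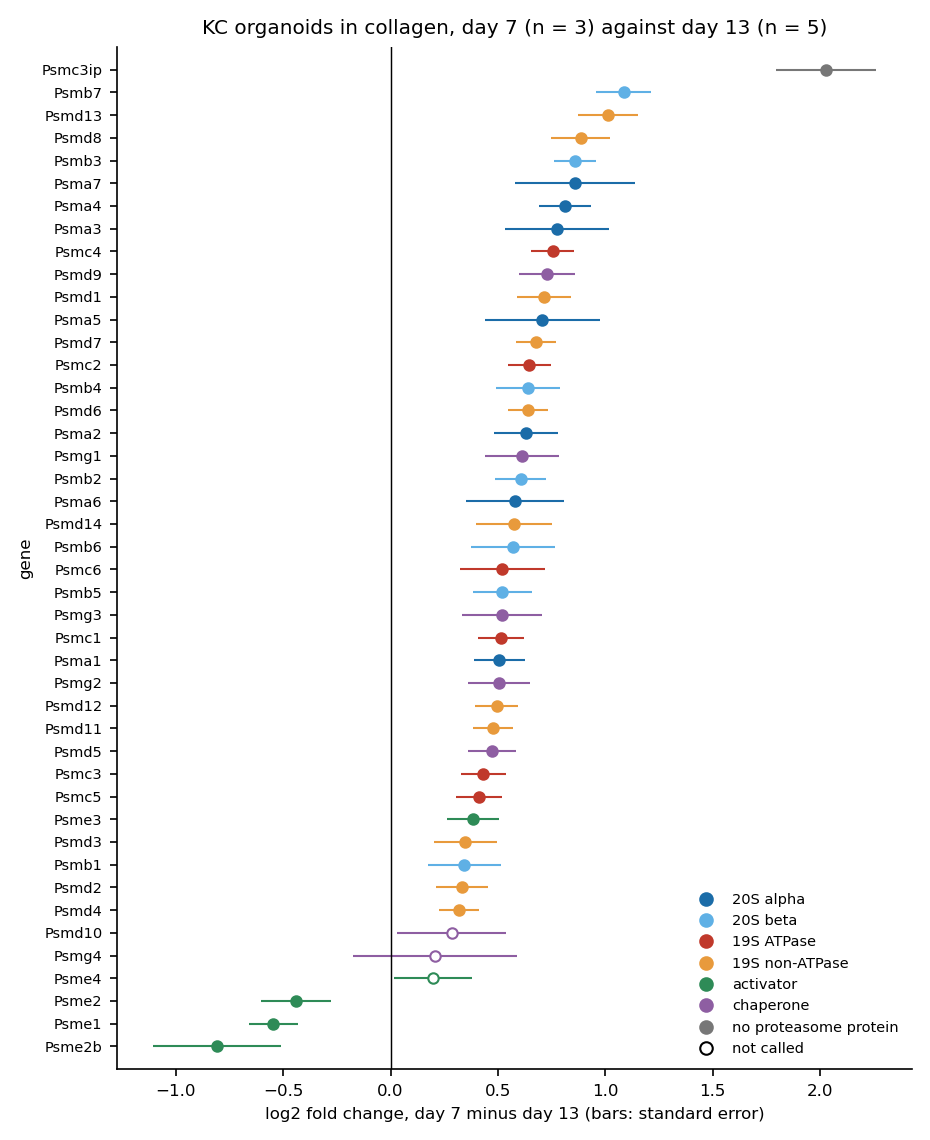
Log2 fold change of each of the 44 genes between day 7 (n = 3) and day 13 (n = 5) in collagen, in order of size, with the standard error of the edgeR fit as bars and open circles for the 3 genes that did not pass the test. All core and regulatory particle genes lie to the right of 0, and Psme1, Psme2 and Psme2b lie to the left.

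Of the assembly chaperones 5 of 7 were higher at day 7. Psmg1 rose by 0.61 ± 0.17 (edgeR adjusted p = 0.00462), Psmg2 by 0.50 ± 0.14 (0.00529) and Psmg3 by 0.52 ± 0.19 (0.0232), all of which help to build the alpha ring. Psmd5 rose by 0.47 ± 0.11 (edgeR adjusted p = 0.000966) and Psmd9 by 0.73 ± 0.13 (5.22e-05), which help to assemble the base of the regulatory particle. Psmg4 (0.21 ± 0.38, edgeR adjusted p = 0.681) and Psmd10 (0.29 ± 0.25, 0.374) were not called.

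Ratios within a library show the same divergence without any normalization. Psme1 and Psme2 together had 3.53 to 4.05 counts per 100 counts of the 14 core genes at day 7 and 8.09 to 8.73 at day 13, with means of 3.82 ± 0.26 (SD, n = 3) and 8.38 ± 0.23 (n = 5). Day 7 was below every other group, and KPC organoids were the next lowest, with 5.84 to 6.82. The regulatory particle kept closer pace with the core, at 52.3 ± 0.94 counts of its non-ATPase subunits per 100 core counts at day 7 and 53.9 ± 1.96 at day 13, which overlapped. For the ATPases the means were 30.7 ± 1.05 and 32.9 ± 1.29. These ratios compare captured ends and not numbers of protein subunits.

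**Figure D3:**
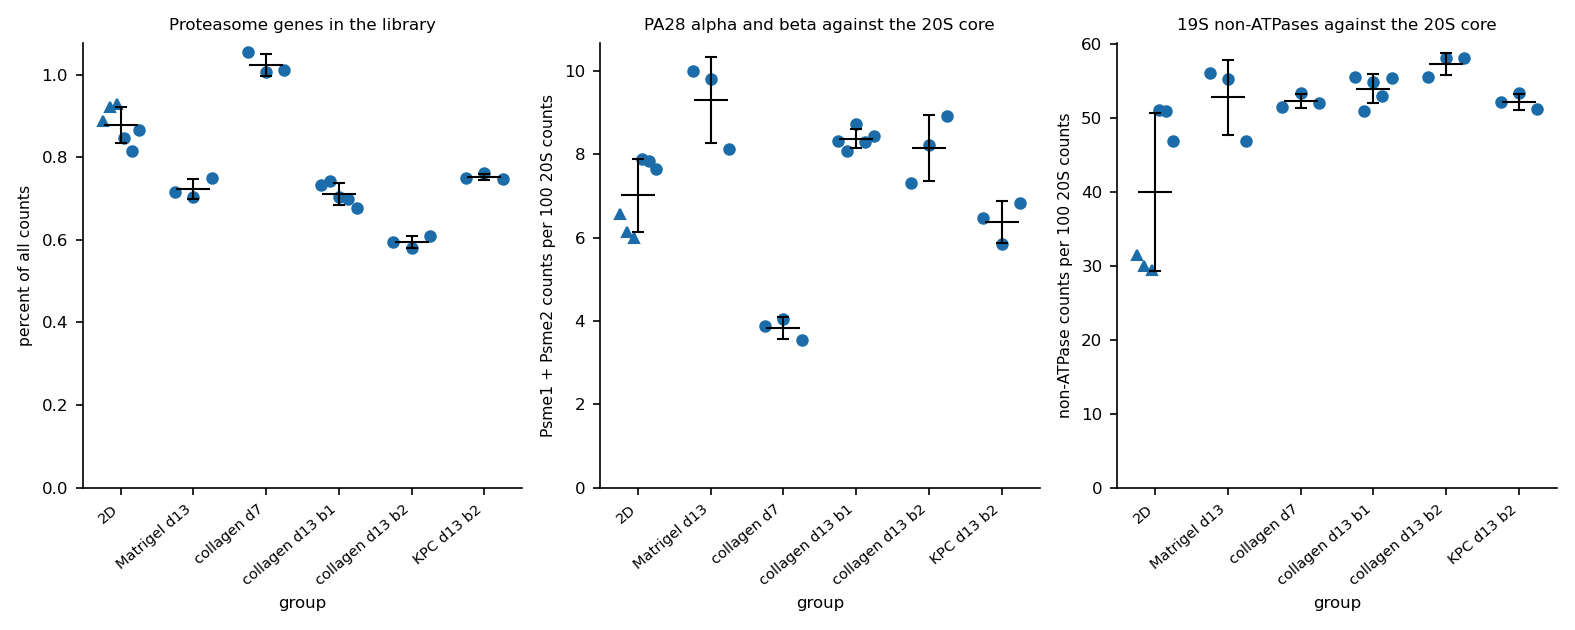
Share of the 44 genes, without Psmc3ip, in all counts of a library (left), counts of Psme1 and Psme2 per 100 counts of the core genes (middle) and counts of the 19S non-ATPase genes per 100 core counts (right), with 1 point per library, triangles for 2D replicates 1 to 3, and the mean and SD of each group as bars (b1 and b2 are the batches). Collagen day 7 has the highest shares in the left panel, at 1.01% to 1.05%, and the lowest values in the middle panel, at 3.53 to 4.05.

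Cell division genes moved with this contrast. All 8 of them were higher at day 7 (median log2 fold change 1.58), with summed levels of 1115 to 1245 CPM against 336 to 473 CPM at day 13. Of the leukocyte markers only Cd68 and Cd14 passed the filter, and both were lower at day 7, with sums of 50.3 to 62.0 CPM against 80.6 to 119 CPM. The leukocyte markers Ptprc, Csf1r and Itgam had means of 0.16, 0.13 and 0 CPM at day 7 and 0.28, 0.20 and 0 CPM at day 13. Of the 8 ductal markers 2 were higher and 4 lower, with the adhesion gene Epcam at 5.87 CPM at day 7 and 56.2 CPM at day 13 (-3.27, edgeR adjusted p = 3.85e-10) and the mucin gene Muc1 at 78.6 and 599 CPM (-2.93, 6.67e-13). The 1 acinar marker tested, Cela1, was at 3.17 and 9.42 CPM (-1.56, edgeR adjusted p = 0.00167). Their part in the changes of the proteasome genes was not tested.

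KPC organoids were compared with KC organoids of the same batch, matrix and day to ask how the lines differ. The members were on balance higher in KPC, with 35 of 44 log2 fold changes above 0 and a median of 0.22 (0.01 over all genes), but most single genes did not pass. The test called 8 higher and 0 lower, against 9.58% higher and 10.4% lower among all genes tested. The 14 core genes all had a positive log2 fold change, of which 3 passed. These were Psmb2 (0.41 ± 0.14, edgeR adjusted p = 0.0467), Psmb3 (0.34 ± 0.11, 0.0455) and Psmb7 (0.39 ± 0.15, 0.0815), all of the beta ring, and none of the 7 alpha subunits passed (median 0.24, smallest adjusted p = 0.237).

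Psmd13 had 78.1, 81.6 and 78.0 CPM in KC and 109, 107 and 125 CPM in KPC organoids, which did not overlap (log2 fold change 0.52 ± 0.17, edgeR adjusted p = 0.0359). Its call was lost without KC replicate 1 (adjusted p = 0.105), KC replicate 3 (0.116) or KPC replicate 3 (0.144). Psmc3ip showed the highest change again, from 3.973, 4.184 and 3.998 CPM in KC to 15.3, 12.6 and 8.97 CPM in KPC (1.57 ± 0.33, edgeR adjusted p = 0.00159). Psmg3 rose from 18.5, 25.8 and 17.3 CPM to 31.9, 37.7 and 27.5 CPM (0.65 ± 0.24, edgeR adjusted p = 0.0681), a call lost without KC replicate 1 (adjusted p = 0.2) or 3 (0.245) and without KPC replicate 1 (0.141) or 2 (0.245), and the ATPase gene Psmc2 by 0.47 ± 0.12 (0.00702). Psme3 rose by 0.38 ± 0.15 (edgeR adjusted p = 0.0935), whereas Psme1 (-0.10 ± 0.12, 0.682), Psme2 (0.02 ± 0.19, 0.962) and Psme4 (-0.05 ± 0.20, 0.909) did not pass. Per 100 core counts Psme1 and Psme2 together had 5.84 to 6.82 counts in KPC and 7.32 to 8.93 in KC organoids. Of the cell division genes 4 of 8 were higher in KPC, with sums of 571 to 616 CPM against 387 to 445 CPM, and their part in these differences was not tested. With library sizes alone in place of normalization factors, 13 members were higher and 0 lower, and the median of all genes then lay at 0.13. Without KC replicate 2 or 3, or KPC replicate 2, 4 calls were left, without KPC replicate 1 there were 5, and without KPC replicate 3 there were 3.

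KC organoids in collagen at day 13 were grown in both batches, which shows how far a batch moves these genes. Batch 2 had 4 members higher and 12 lower than batch 1, against 19.3% higher and 18.1% lower among all genes tested, with a median log2 fold change of -0.11 (-0.05 over all genes). Psmb5 had 59.6, 60.7 and 63.3 CPM in batch 2, all below the 99.1 to 121 CPM of batch 1 (-0.86 ± 0.15, edgeR adjusted p = 0.000127). The other catalytic subunits did not follow it, as Psmb6 did not pass (-0.18 ± 0.20, 0.54) and Psmb7 was higher (0.31 ± 0.13, 0.0793) with overlapping libraries, a call lost without replicate 1 (adjusted p = 0.172) or 2 (0.206) of batch 2 and without replicate 2 (0.124) or 3 (0.129) of batch 1. Without replicate 1 of batch 2, 9 members were called. The PA28 genes parted as well. Psme1 had 130, 139 and 145 CPM in batch 2, above the 91.6 to 110 CPM of batch 1 (0.48 ± 0.11, edgeR adjusted p = 0.00165). Psme2 had 82.8, 94.1 and 110 CPM, below the 163 to 184 CPM of batch 1 (-0.84 ± 0.17, edgeR adjusted p = 0.000588).

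Psme3 was at 98.2 to 111 CPM in batch 1 and lower in batch 2, at 70.9, 59.3 and 52.0 CPM (-0.77 ± 0.13, edgeR adjusted p = 9.28e-05). Psme4, of PA200, rose from 28.8 ± 4.91 CPM (SD, n = 5) to 45.0 ± 8.57 CPM (n = 3; 0.64 ± 0.18, edgeR adjusted p = 0.00952), and Psme2b was lower (-0.93 ± 0.33, 0.0368), a call lost without replicate 1 of batch 2 (-0.70, 0.195) or replicate 2 (-0.94, 0.1). Of the chaperones, Psmd5 fell by 0.77 ± 0.12 (edgeR adjusted p = 3.6e-05) and Psmd9 by 0.35 ± 0.15 (0.089), while none of the Psmg genes was called. Under library sizes alone, with which all genes shifted by a median of -0.18, the split was 1 higher and 18 lower. Removing the trend with exon length gave 6 higher and 7 lower. What the batches share besides their labels is not known here, so batch and any difference in culture cannot be told apart.

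**Figure D4:**
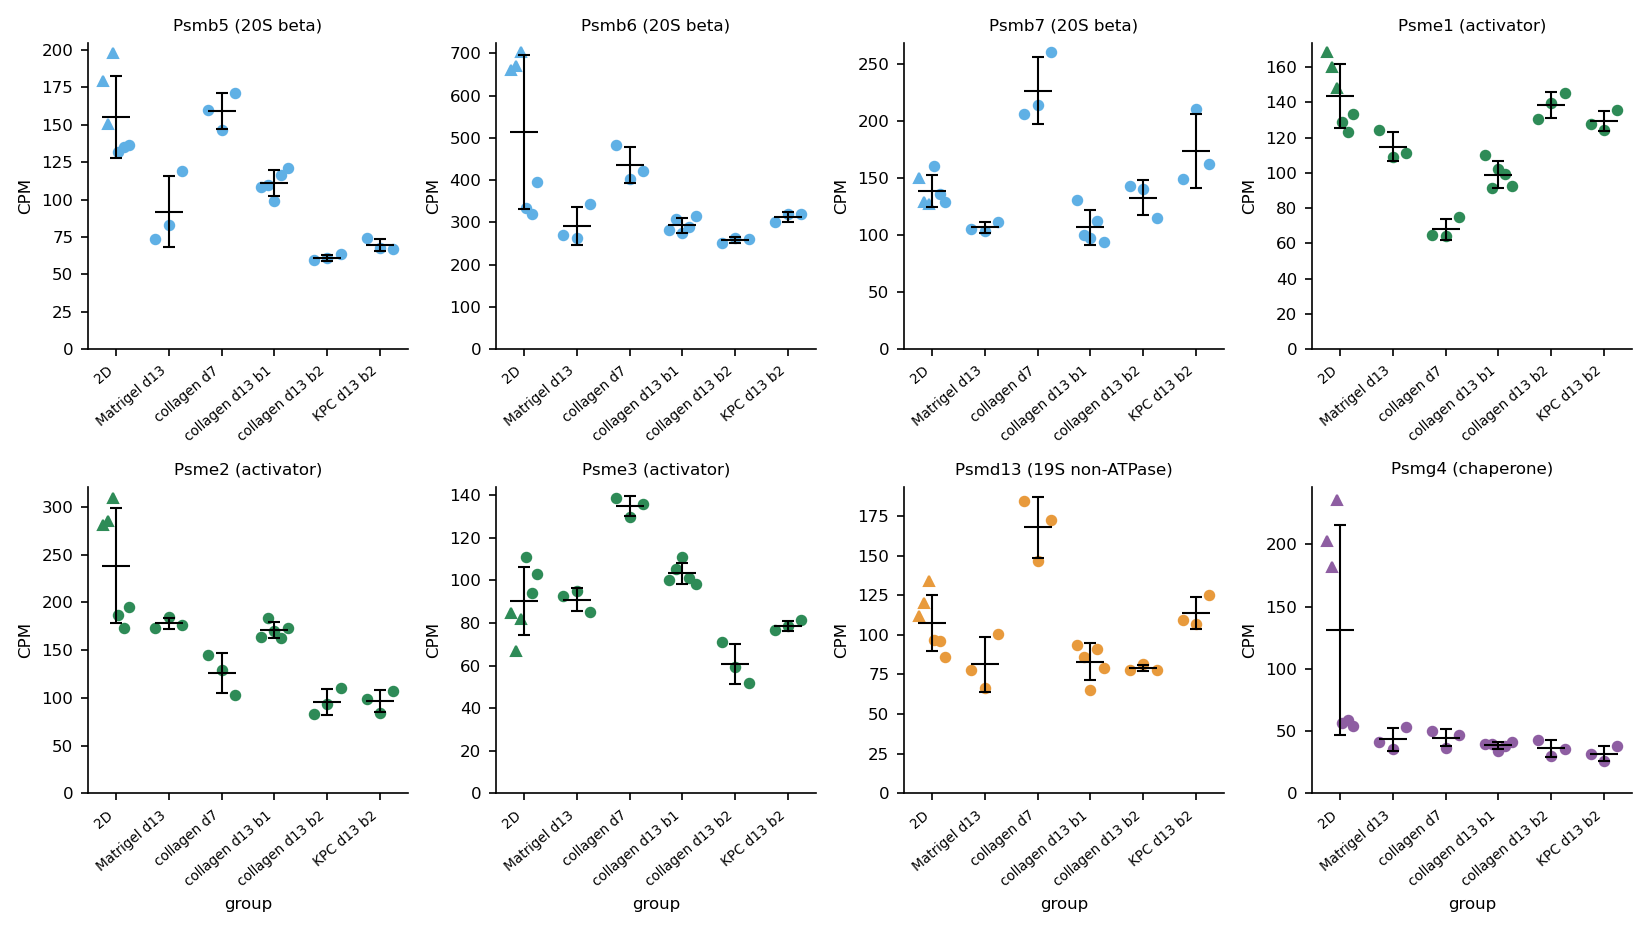
CPM of 8 genes by group, with 1 point per library, triangles for 2D replicates 1 to 3, and the mean and SD of each group as bars (d is day, b is batch). Psmb7 and Psmd13 are highest at collagen day 7 and Psme1 is lowest there, Psmb5 is lowest in the collagen groups of batch 2, and Psmg4 is above 180 CPM only in 2D replicates 1 to 3.

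Matrigel and collagen organoids at day 13 were compared to ask how the matrix affects the genes. Of the 44 members 0 were higher and 1 was lower in Matrigel in the edgeR test, against 6.62% higher and 6.29% lower among all genes tested. The median log2 fold change was -0.02 (-0.01 over all genes), and 1 member had an unadjusted p under 0.05. That gene was Psmd6, a lid subunit, with 146, 143 and 125 CPM in Matrigel and 169, 161, 178, 168 and 179 CPM in collagen. The groups did not overlap, and the gene fell by 0.31 ± 0.10 (edgeR adjusted p = 0.0437). This call was lost without Matrigel replicate 2 (adjusted p = 0.105) or 3 (0.218) and without collagen replicate 3 (0.103) or 5 (0.12). The catalytic subunits Psmb5 (-0.28 ± 0.14, edgeR adjusted p = 0.26), Psmb6 (-0.01 ± 0.20, 0.99) and Psmb7 (-0.00 ± 0.13, 0.993) did not pass. Neither did Psme1 (0.21 ± 0.11, edgeR adjusted p = 0.265) or Psme2 (0.06 ± 0.16, 0.891).

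Cells in 2D were compared with collagen organoids of both days to ask how these genes differ between 2D and 3D growth. The comparisons share the 2D libraries with each other and the day 13 libraries with those above. Against day 13, 32 members were higher in 2D and 1 was lower, where 26.3% of all genes tested were higher and 23.3% lower, with a median of 0.47 (0.01 over all genes). Without 2D replicates 1 to 3, 24 were higher and 0 lower, against 18.9% and 20.3% of all genes, and the median was 0.23. Without replicates 4 to 6, 34 were higher and 5 lower, against 26.8% and 28.1% of all genes. Higher in all 3 fits were 24 members, among them all 14 core genes, and lower in all 3 were 0, where 11.4% and 14.7% of the genes tested in all 3 were. Under library sizes alone, where the median of all genes was -0.20, the split was 20 higher and 4 lower.

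Against day 7 the direction was the reverse mostly for the regulatory particle, and for the core it depended on the 2D libraries used. With all 6 libraries 8 members were higher and 20 lower in 2D, against 26.4% and 24.8% of all genes tested (median -0.10, 0.02 over all genes). By class, 0 ATPases were higher and 4 lower, and 0 of the 19S non-ATPases were higher and 8 lower. The core had 3 higher and 3 lower (median 0.10), the chaperones 2 and 2, and the activators 3 and 2. At day 7 the summed alpha subunits had 2453 to 2793 CPM and the beta subunits 2323 to 2603 CPM. Replicates 4 to 6 of 2D lay below these, at 1884 to 2119 and 1901 to 2175 CPM. Replicates 1 to 3 lay above them, at 3871.5 to 4488.5 and 2918 to 3136 CPM. Without replicates 1 to 3 the counts were 4 higher and 26 lower, against 23.9% and 22.4% of all genes (median -0.29), and without replicates 4 to 6 they were 18 higher and 18 lower, against 28.3% and 29.1% (median -0.01). The sets gave opposite calls for 7 members, against 2.28% of all genes, so the direction of these depends on which 2D libraries are used. In all 3 fits Psme1, Psme2, Psme2b and Psmg4 were higher in 2D than at day 7, and 15 members were lower, among them Psmb3, Psmb7, 4 of the ATPases, Psmd1, Psmd13, Psme3 and Psme4. Among all genes, 14.9% were higher and 16.5% lower in all 3 fits. The split was 5 higher and 25 lower under library sizes alone (median of all genes -0.14), and 15 higher and 18 lower with the replicate block.

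Psme1 ranged from 123 to 169 CPM in 2D with a median of 141 CPM, and no library was as low as the 63.9 to 75.0 CPM of day 7 or the 91.6 to 110 CPM of day 13. The log2 fold change was 1.07 ± 0.11 against day 7 (edgeR adjusted p = 6.68e-08) and 0.53 ± 0.09 against day 13 (8.14e-05), and without replicates 1 to 3 it was 0.94 and 0.34. Psme2 ranged from 173 to 310 CPM with a median of 238 CPM, and was higher than at day 7 by 0.91 ± 0.16 (edgeR adjusted p = 9e-05) and than at day 13 by 0.47 ± 0.14 (0.00709). Without replicates 1 to 3 Psme2 was 0.58 above day 7 but its difference from day 13 did not pass (0.08, adjusted p = 0.57). Psme4 was the gene called lower than at day 13 (-0.48 ± 0.17, edgeR adjusted p = 0.0243), with 13.96 to 28.81 CPM in 2D (median 18.2) and 23.02 to 36.28 CPM at day 13, and this call was lost without replicates 1 to 3 (-0.33, adjusted p = 0.164).

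Of the catalytic subunits, Psmb7 was 127 to 161 CPM in 2D (median 133), below all libraries of day 7 (206 to 261 CPM) and overlapping the upper end of day 13 (94.0 to 131 CPM). It was lower than at day 7 by -0.71 ± 0.12 (edgeR adjusted p = 6.81e-05) and higher than at day 13 by 0.38 ± 0.11 (0.00844), and without replicates 1 to 3 the values were -0.65 (8.29e-05) and 0.38 (0.0113). Psmb5 ranged from 132 to 198 CPM (median 143) and Psmb6 from 320 to 703 CPM (median 529). Both were higher than at day 13 (0.47 ± 0.12, edgeR adjusted p = 0.00241, and 0.80 ± 0.17, 0.000461) and did not pass against day 7 with all 6 libraries. Psmb6 was among the members with opposite calls against day 7, at -0.29 (edgeR adjusted p = 0.0214) without replicates 1 to 3 and 0.65 (1.33e-06) without replicates 4 to 6, and against day 13 it was 0.22 (0.0615) and 1.23 (4.13e-14). For Psmb5 these values were -0.22 (edgeR adjusted p = 0.14) and 0.15 (0.334) against day 7, and 0.25 (0.0775) and 0.68 (9.75e-06) against day 13. Psmd1, a scaffold subunit of the base, had the lowest change against day 7, with 91.7 to 143 CPM in 2D (median 122) against 225.6, 224.7 and 248.5 CPM (-0.94 ± 0.12, edgeR adjusted p = 1.77e-06, and -0.77, 1.02e-06, without replicates 1 to 3). Psmc3ip was lower than at day 7 (-0.74 ± 0.21, edgeR adjusted p = 0.00609) and higher than at day 13 (1.29 ± 0.23, 8.84e-05), also without replicates 1 to 3 (-0.76, 0.0113, and 1.22, 0.000801).

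Markers moved with the 2D comparisons too. Of the cell division genes 8 of 8 were lower in 2D than at day 7 (median log2 fold change -0.97) and 7 of 8 were higher than at day 13 (median 0.61), with summed levels of 461 to 722 CPM in 2D. The leukocyte markers Cd68 and Cd14 were both higher than at day 7 (median 1.45), and 1 was higher and 1 lower than at day 13. Of the 8 ductal markers 3 were higher and 4 lower than at day 7, and 1 was higher and 5 lower than at day 13. Fibroblast markers were called higher for 1 of 3 against each day (median 0.56 in both), and none was lower. Cela1 was higher than at day 7 (1.73, edgeR adjusted p = 0.000872) and did not pass against day 13 (0.18, 0.646). Among all genes tested, 26.4% were higher and 24.8% lower than at day 7, and 26.3% and 23.3% than at day 13. The part of these markers in the differences of the proteasome genes was not tested.

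The sets of 2D libraries differed in these genes themselves. All of replicates 1 to 3 were above all of replicates 4 to 6 for 25 members and below them for 8, against 22.5% and 25% of all genes tested. The summed level of the alpha subunits was 3871.5 to 4488.5 CPM in the first set and 1884 to 2119 CPM in the second, while that of the 19S non-ATPase genes was 2156 to 2249 CPM and 1925 to 2035 CPM. Psmg4, a chaperone of the alpha ring at chr13:34162964-34178173, had 203, 181 and 236 CPM in replicates 1 to 3 and 56.2, 58.6 and 54.2 CPM in replicates 4 to 6. The latter lay close to the 36.8 to 50.5 CPM of day 7 and the 34.5 to 41.5 CPM of day 13. Its log2 fold change against day 13 of 1.70 ± 0.31 (edgeR adjusted p = 0.000132) was 0.51 without replicates 1 to 3 (0.00449). Psma7 had 1190, 1351 and 1404 CPM in the first set and 458, 434 and 518 CPM in the second. Its change against day 7 was 0.37 ± 0.28 (edgeR adjusted p = 0.29) with all libraries and -0.53 without replicates 1 to 3 (9.73e-05), and Psma5 likewise went from 0.58 ± 0.26 (0.0758) to -0.24 (0.0607). Psmd10 was 0.78 ± 0.25 above day 7 (edgeR adjusted p = 0.0144) with all libraries and 0.08 (0.666) without them.

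Per 100 core counts the 19S non-ATPase genes had 29.5 to 31.5 counts in 2D replicates 1 to 3, 46.8 to 51.0 in replicates 4 to 6 and 46.9 to 58.1 in all organoids. Across the 44 genes, the difference between the sets of 2D libraries and exon length had a Spearman rho of -0.31, the change of 2D against day 7 one of -0.45 and that against day 13 one of -0.41, whereas that of day 7 against day 13 had one of 0.13. These are descriptions across genes that share libraries. The members had a median exon length of 2724.5 bases, against 4367 over all genes tested.

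**Figure D5:**
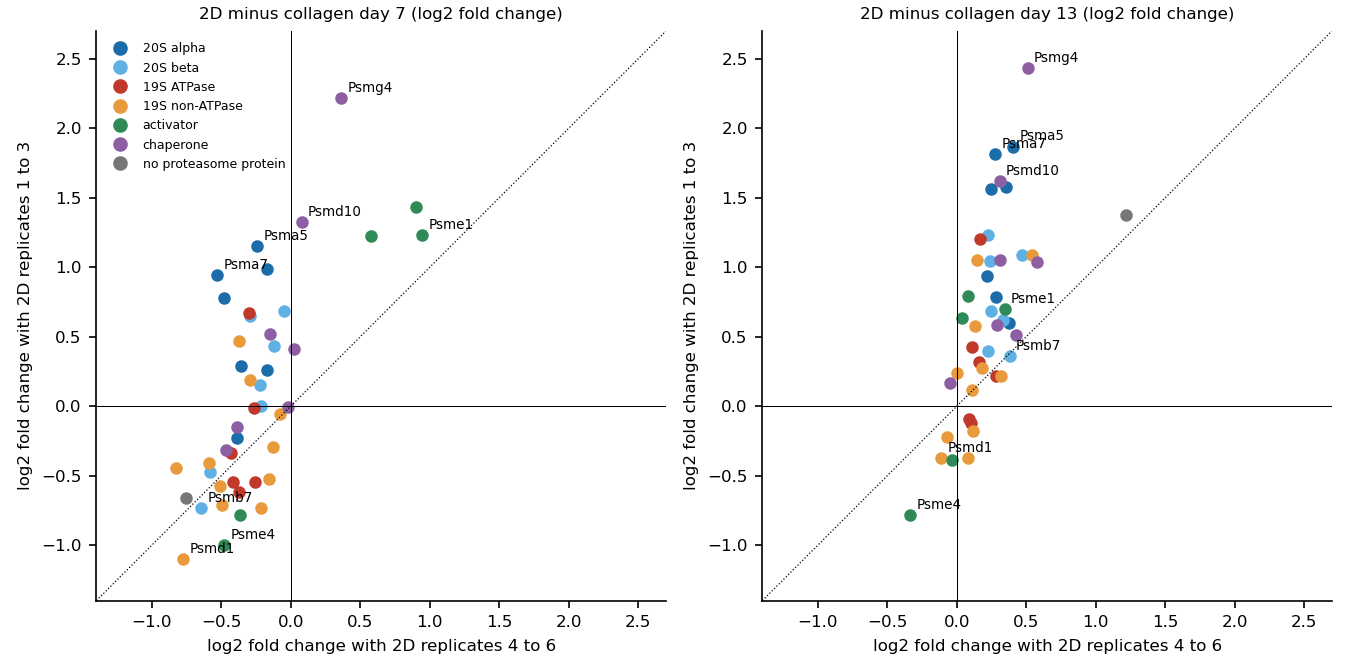
Log2 fold change of 2D against collagen day 7 (left) and day 13 (right) for the 44 genes, with 2D replicates 4 to 6 on the x axis, 2D replicates 1 to 3 on the y axis, colours for the classes and a dotted line where both are equal. Against day 7, Psma7 is at -0.53 on the x axis and above 0 on the y axis, and Psme1 and Psmg4 are above 0 on both.

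Of other genes of the pathway, 37 of those listed were tested. At day 7 against day 13, 15 were higher and 7 lower (28.1% and 27.1% of all genes), and 6 of the 8 genes of other subunits and partners were higher. Ipo9, an importin that carries proteasomes into the nucleus, rose most, from 22.0 ± 3.47 CPM (SD, n = 5) to 52.3 ± 6.15 CPM (n = 3; log2 fold change 1.24 ± 0.20, edgeR adjusted p = 1.53e-05). Pomp, the maturation factor of the core, rose by 0.37 ± 0.14 (edgeR adjusted p = 0.033). Among 9 genes listed for the transcription of subunit genes, 1 was higher and 5 were lower. Ngly1, the glycanase that acts on the transcription factor encoded by Nfe2l1, fell by 0.78 ± 0.14 (edgeR adjusted p = 7.62e-05) and Nfe2l1 itself by 0.32 ± 0.15 (0.0751), from 127 ± 20.2 CPM to 102 ± 24.8 CPM with overlapping libraries. Nfe2l2, which encodes the regulator of the antioxidant response, did not pass (-0.20 ± 0.14, edgeR adjusted p = 0.235).

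In KPC against KC organoids 4 of the 37 were higher and 5 lower (9.58% and 10.4% of all genes). Sem1, a small subunit of the regulatory particle, rose most (0.63 ± 0.17, edgeR adjusted p = 0.0109). Ddi2, the protease that cleaves the product of Nfe2l1, fell most, from 55.8 ± 5.19 CPM (SD, n = 3) to 30.8 ± 3.05 CPM (n = 3; -0.85 ± 0.18, edgeR adjusted p = 0.002), while Nfe2l2 fell by 0.62 ± 0.15 (0.00632) and Nfe2l1 did not pass (-0.29 ± 0.16, 0.256). In batch 2 against batch 1, 4 were higher and 12 lower (19.3% and 18.1% of all genes). Nfe2l1 rose most (0.62 ± 0.14, edgeR adjusted p = 0.00181). In 2D, 3 were higher and 17 lower than at day 7 (26.4% and 24.8% of all genes), and 6 were higher and 10 lower than at day 13 (26.3% and 23.3%). Without replicates 1 to 3 these counts were 4 and 14 (23.9% and 22.4% of all genes), and 4 and 7 (18.9% and 20.3%). Rps27a, a gene of ubiquitin fused to a ribosomal protein, rose most against both, by 1.19 ± 0.46 (edgeR adjusted p = 0.0391) and 1.85 ± 0.39 (0.000536), but ranged from 854 to 4965 CPM among the 2D libraries, and without replicates 1 to 3 neither change passed (-0.33, edgeR adjusted p = 0.231, and 0.27, 0.309). Ipo9 was lowest against day 7 (-1.14 ± 0.20, edgeR adjusted p = 7.22e-05) and Ngly1 against day 13 (-0.66 ± 0.12, 0.000109), and both were called without replicates 1 to 3 (-0.94, 0.000164, and -0.57, 0.000493). In Matrigel, where 6.62% of all genes were higher and 6.29% lower, the 1 gene called was Ngly1 (-0.80 ± 0.15, edgeR adjusted p = 0.000527).

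The immunoproteasome subunits were scarce. Psmb8 had at most 7 counts and Psmb9 at most 14 counts in any library, so neither was tested. Psmb9 had 0 counts in all libraries of day 7 and of KPC organoids, for which the upper limit is 3 counts, against 10 to 14 counts in Matrigel. Psmb10, which replaces the product of Psmb7, was lower at day 7 than at day 13 (-0.41 ± 0.17, edgeR adjusted p = 0.0441) with overlapping libraries, and was higher in KPC than in KC organoids of batch 2 (0.56 ± 0.19, 0.0444). Per 100 counts of Psmb7 there were 13.7 ± 2.83 counts of Psmb10 at day 7 (SD, n = 3) and 37.9 ± 8.56 at day 13 of batch 1 (n = 5), and the highest library of day 7, at 16.9, was below the lowest of day 13, at 28.5.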

How the data were processed

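Bulk 3′-end RNA sequencing of 23 libraries was used. The authors made libraries from polyadenylated RNA with molecular identifiers, aligned reads to GRCm38 and counted the molecules of each gene by means of the Drop-seq tools and GENCODE, and the deposited values are raw counts of 27207 genes. Library totals of 1221451 to 2471058 counts, and 9.75 to 568 CPM per member, set the counting precision. Intervals for counting error alone were not needed, since errors are spreads between libraries. The study calls the Matrigel libraries and the collagen libraries of batch 1 separate experiments, all with 1 line, and the sources used here were not found to say so for the 2D and batch 2 libraries, so p-values measure the spread between cultures of a line, which may be technical.

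Counts were tested in R 4.3.3 with edgeR 4.0.16 (quasi-likelihood F-test, TMM factors and filterByExpr) in 1 fit of all libraries with the 6 groups as levels. Benjamini-Hochberg adjustment covered all 11144 genes tested, and genes at a false discovery rate of 0.1 were called. CPM are scaled with TMM factors, and the heat map is drawn from the log2 of these values. The fit was tested on simulated data with 200 changed genes. Alternatives were DESeq2 1.42.0, other size factors, no filter on low counts, a threshold of 0.05, the compared groups alone, removal of the trend with exon length, a replicate block and leaving out each library. Fits with one set of 2D libraries were added after the data had been seen. The closest pair of libraries in a group had a chi-square per degree of freedom of 1.27, so none was counted as a copy of another. Same-numbered libraries of different groups had correlations of -0.119 to 0.188 in their deviations from the group means, so the numbers do not pair them.

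Named with values were the catalytic subunits, the activators, the chaperones, the 3 members with the highest and the 3 with the lowest log2 fold change among those called in a comparison, the 2 most and 2 least abundant members, and, of the other pathway genes, the called gene with the highest and the lowest change, Pomp, Nfe2l1, Nfe2l2 and the immunoproteasome subunits. Psma5, Psma7, Psmb1, Psmb2, Psmb3, Psmc2 and Psmd4 were named in other comparisons after their values were seen. Some alleles of the lines and some of these genes are not reported here. The members and lists were chosen with earlier results of these data known.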

Additional observations from a re-analysis of the deposited data

How the results depend on the processing

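None of the 26 named calls reversed its direction under the alternatives run on it. Between the sets of 2D libraries, 7 members had opposite calls against day 7, Psma5 (0.58, adjusted p = 0.0758, with all 2D libraries and -0.24, 0.0607, without replicates 1 to 3) among them. The number of members called at day 7 against day 13 (41) was 37 to 42 under other settings and 36 to 40 with 1 library left out. Against day 7, the 28 members called in 2D became 22 to 36 and 23 to 28. Against day 13, the 33 became 24 to 39 and 32 to 35. The 44 members called in any comparison of batch 1 became 42 to 44. For Matrigel against collagen the 1 call became 0 with library sizes alone, 0 without the filter on low counts, 2 with the replicate block and 0 to 1 with 1 library left out. For KPC against KC the 8 calls became 13 with library sizes alone, 3 without the filter, 5 at a threshold of 0.05, 17 with the compared groups alone, 5 with the trend with exon length removed and 3 to 6 with 1 library left out, lowest without KPC replicate 3. For the batches the 16 calls became 10 without the filter and 9 to 16 with 1 library left out, lowest without batch 2 replicate 1. The cause was not tested. The replicate block is reported although the numbers do not pair the libraries.

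Of 462 values of the 26 named calls, 428 kept their side of the threshold and 34 lost it. Psmd6 in Matrigel was lost with library sizes alone (adjusted p = 0.28), without the filter (0.398) and with the trend with exon length removed (0.138). With all 8 KC collagen libraries of day 13 in place of batch 1, the changes of Psme2 (-0.19, adjusted p = 0.497) and Psme2b (-0.56, 0.166) at day 7 did not pass. Psmg3 in KPC was lost in 8 alternatives, with adjusted p up to 0.245, and Psmb7 between batches in 7. Psme4 between batches was lost with library sizes alone (0.101). Psme2b between batches was lost with the trend with exon length removed (-0.63, 0.134). Depth limits Psmc3ip, Psme2b, Psmb8 and Psmb9 most, which had the fewest counts.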
